A study of Mus musculus with 6 samples.

Results

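The AlkB dioxygenase family was examined in undifferentiated mouse embryonic stem cells (mESCs) with and without its member *Alkbh1*. The family was taken as 9 genes by name, *Alkbh1* to *Alkbh8* and *Fto*, and the rule that picks their probe sets uses names and not differences between genotypes. All 9 had a probe set among the 15357 genes that could be named, with 17 probe sets between them of the 33142 with a deposited mean level. The other 8 genes are the paralogs of the targeted gene, and the question was whether their transcripts differ once *Alkbh1* is lost. Expression was measured with 3 microarrays of WT and 3 of Alkbh1-/- cells, both on the C57BL/6 background, at passage 8 and day 0 of differentiation, without treatment. The WT and Alkbh1-/- cells came from littermate embryos of heterozygous parents and were kept with leukemia inhibitory factor on irradiated mouse embryonic fibroblasts. The labels number the arrays C3-1 to C3-3 and C10-1 to C10-3, and do not say what C3 and C10 stand for. Nothing in them ties the 3 arrays of a genotype to separate cultures or embryos, so a difference of genotype cannot be told apart from any other difference between the cells labelled C3 and C10.

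Proteins of the AlkB family use iron, oxygen and 2-oxoglutarate to oxidize their substrates, and an oxidized methyl group can then leave as formaldehyde. The bacterial founder of the family repairs methylated bases in DNA, and its mammalian relatives work on DNA, RNA or protein. The best known members are ALKBH5 and FTO, the 2 that remove methyl groups from adenosine in messenger RNA. ALKBH1 itself has been assigned substrates in histones, in DNA and in transfer RNA.

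On these arrays a probe set is a group of short oligonucleotides, and its brightness reflects the abundance of a transcript. Levels are given as log2 values, as the authors' mean over all 6 arrays, and therefore mix both genotypes. Over the 33142 probe sets of the deposited table they ran from 3.22 to 14.67 with a median of 6.31. Means of each genotype were deposited only for the 4326 entries of a second table, made by a company that first analysed the arrays and called the class comparison below. Its header counts 45101 probe sets, more than the 33142 with a mean level. Medians, percentiles and shares of the array or of all probe sets refer below to the 33142. No value of a single array was used, so no value below carries a standard deviation or a test between genotypes. The larger table also holds the authors' own differences and p-values, which were not used here.

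The cells were checked against markers. Of 11 transcripts typical of mESCs, all 11 lay at or above the 89.9th percentile of all probe sets, from *Zfp42* (10.05) to *Dppa5a* (14.49). The brightest probe sets of 5 of them had group means, against 14.7% over the brightest probe set of each named gene. Of these 5, 4 were higher in Alkbh1-/- cells, among them *Nanog* at 1.10 on the log2 scale, and *Utf1* was lower at −0.49. The others, *Pou5f1* and *Sox2* among them, had none at their brightest probe set. Of all matched probe sets, 2178 were higher in Alkbh1-/- cells and 2053 lower. Transcripts of fibroblasts, which the feeder layer also supplies, were present as well. Of 12 such markers, 7 were at or above the upper quartile of all probe sets. The 4 whose brightest probe set had group means were all lower in Alkbh1-/- cells, from *Col1a1* at −1.06 to *Thy1* at −0.52 on the log2 scale. The brightest probe sets of the others, among them *Fn1*, *Col1a2* and *Vim*, had none. The part of either marker list in the values below was not tested. The Y-linked *Eif2s3y* was at 9.55 in WT and 3.90 in Alkbh1-/- cells, and 53.5% of X-linked probe sets had group means against 12.1% of autosomal ones. Of the 499 X-linked probe sets with group means 469 were higher in Alkbh1-/- cells, and of the 3306 autosomal ones 1471. The matched probe sets of the Y-linked *Ddx3y* were also lower in Alkbh1-/- cells, with log2 differences from −4.87 to −3.23. The groups thus differ in X-linked and Y-linked transcripts as well as in genotype. All 9 AlkB family genes are autosomal, but for autosomal genes too these differences between the groups cannot be told apart. In such bulk RNA, fewer cells of a type and less RNA per cell cannot be told apart.

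Within the family, only the targeted gene had a difference that could be given. *Alkbh1*, at its brightest probe set 1434660_at, had a mean intensity of 761 in WT and 25.7 in Alkbh1-/- cells, the authors' geometric means. This is a 29.6-fold lower signal, or −4.89 on the log2 scale, and it was the second lowest of the differences of the 4231 probe sets whose group means could be matched. The lowest was that of the Y-linked *Eif2s3y* (−5.65). Its other probe set, 1438681_at, had means of 120 in WT and 34.6 in Alkbh1-/- cells, a 3.47-fold lower signal (−1.79 on the log2 scale). Both probe sets were thus far lower in the cells labelled Alkbh1-/-. The log2 means there were 4.69 and 5.11, against a lowest level of 3.22 on the array. In the same cells the probe sets of the Y-linked *Ddx3y* were at 3.66 to 4.20. Whether the values of 4.69 and 5.11 hold any *Alkbh1* transcript was not tested. The position of these probes relative to the deleted part of the gene was not examined here.

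None of the 8 paralogs had group means. The 15 probe sets of *Alkbh2* to *Alkbh8* and *Fto* had 0 matches in the class comparison, at the brightest probe set of each gene as well as at the other 7. Over all probe sets 12.8% had group means, and over the brightest probe set of each named gene 14.7%. The mean over both genotypes of the nearest entry lay 2.80e-05 log2 units from that of a paralog (*Fto*), beyond the tolerance of 1e-06 at which the tables were matched. With the 2 probe sets of *Alkbh1* counted, 2 of 17 family probe sets (11.8%) had group means, both of them of the targeted gene. For the paralogs alone the count was 0 of 15, and its distance from the background was not tested. Neither count is read as a result about the family. *Alkbh1*, the 1 member with group means, was lower in Alkbh1-/- cells by over 1.5-fold. Of all probe sets, 3.87% had group means and were lower by over 1.5-fold. No fold can be given for probe sets without group means, those of the other 8 members among them.

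What the missing entries allow is limited. The header of the class comparison states that 7320 of 45101 probe sets (16.2%) passed a filter that is not described, and sets the nominal significance level at 0.05. The entry with the smallest difference had a 1.29-fold difference between its group means. A paralog can therefore be missing because it was filtered out before the test or because it did not pass it, and these cannot be told apart. For the paralogs, neither a change nor the lack of one can be stated from the means used here.

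**Figure D1:**
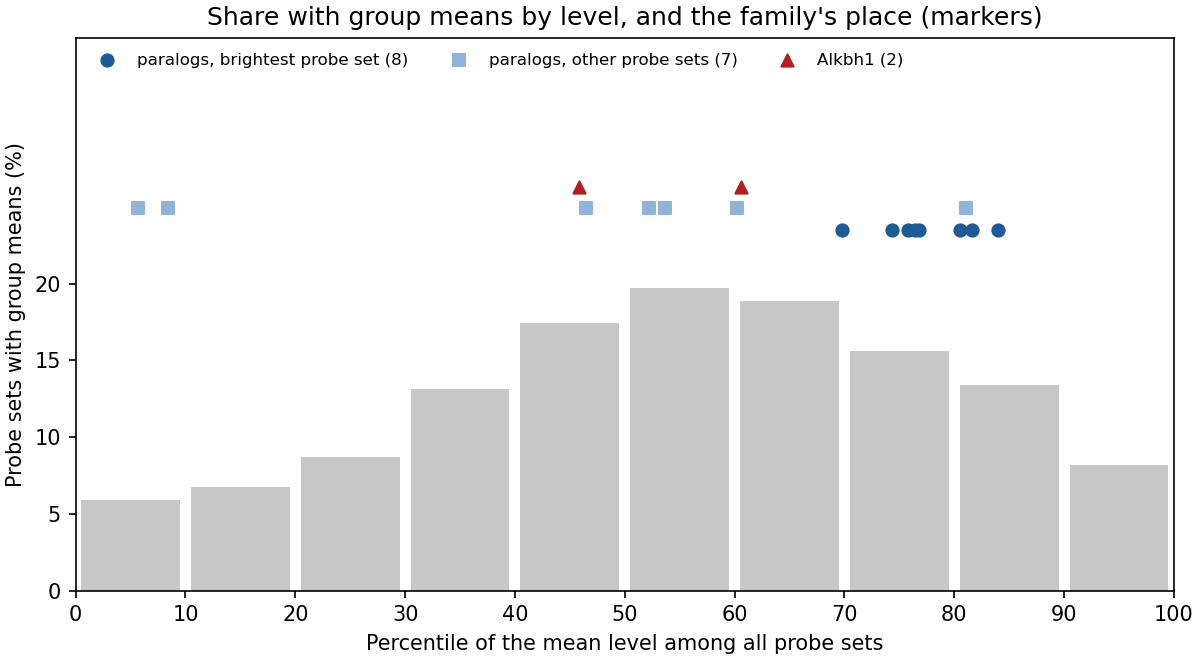
Grey bars give the share of probe sets with group means in the class comparison, in percent, in 10 equal bins of all probe sets ordered by mean level (horizontal axis, percentile); markers above the bars give the percentiles of the 17 family probe sets, and their height has no meaning. The brightest probe sets of the 8 paralogs lie between the 69.8th and the 84.0th percentile, where 13.4% to 18.9% of probe sets have group means, and none of the 8 does.

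How often a probe set had group means depended on its level. With all probe sets ordered by level in 10 equal bins, the share was 5.88% in the dimmest bin, 19.7% in the sixth, where it was highest, and 8.17% in the brightest. The brightest probe sets of the paralogs had levels from 7.90 to 9.27, and among all 4707 probe sets in this range 15.5% had group means. The share over all probe sets was 12.8%, and over the brightest probe set of each named gene 14.7%. The dimmest probe sets of *Alkbh3* (4.06) and *Fto* (3.97) lay in the dimmest bin.

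Each paralog had at least 1 probe set above the median level of the array. The brightness of a probe set also depends on its probes, so the levels below are not an order of the genes. Of the 8 brightest probe sets, all 8 were above the median of 6.31 and 6 were at or above its upper quartile of 8.38. Setting the brightest probe set of a gene against all probe sets can raise its rank. Among the brightest probe sets of all named genes, the 8 lay between the 58.1th (*Alkbh4*) and the 76.8th percentile (*Alkbh5*). On that scale only *Alkbh5* was above the upper quartile, and *Alkbh7* came next at the 73.5th percentile. Probe sets of 1 gene often disagreed, and the 7 further probe sets of the paralogs had levels from 3.97 to 8.94, with 3 of them under the median.

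**Figure D2:**
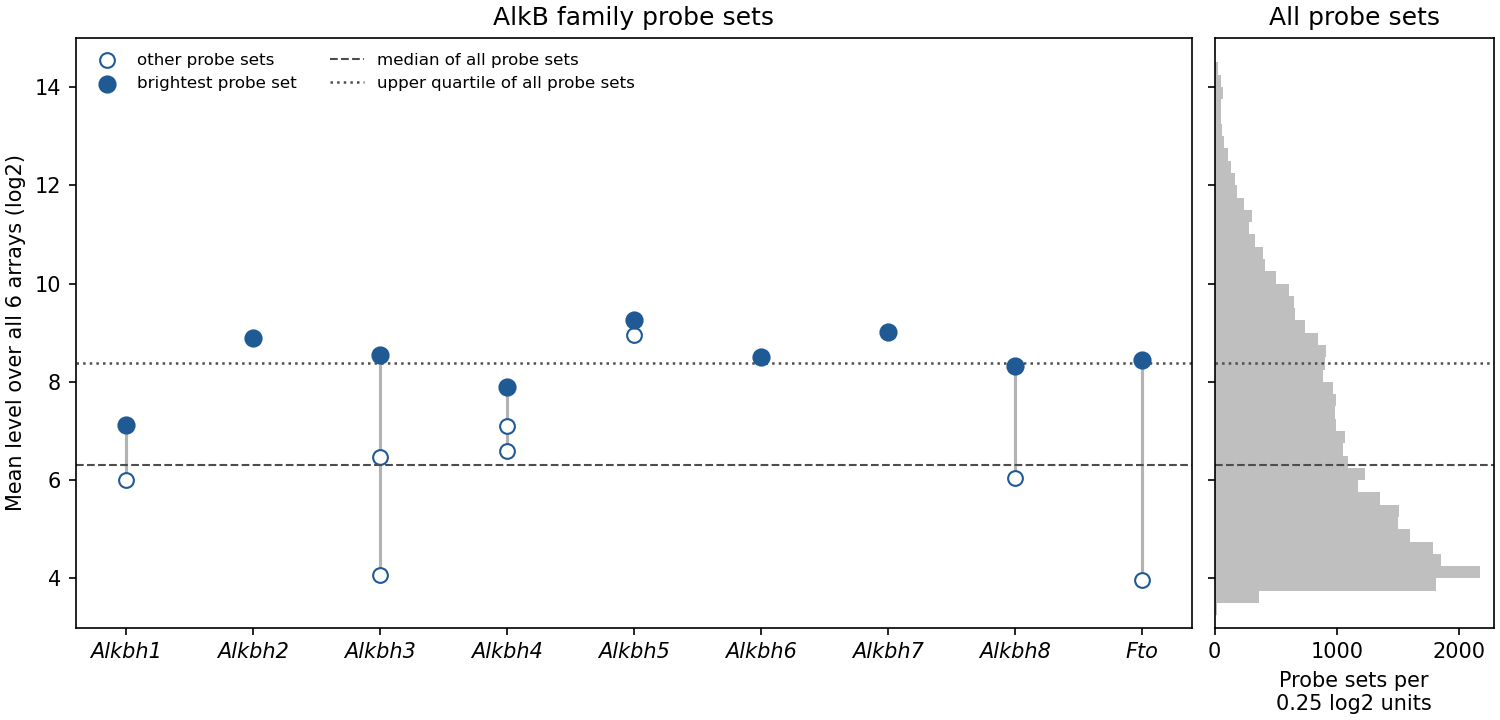
Left, mean log2 level over all 6 arrays (vertical axis) of each probe set of the 9 AlkB family genes; filled circles are the brightest probe set of a gene, open circles its other probe sets, and the lines join probe sets of 1 gene. Right, the number of all probe sets on the same scale, with their median (6.31, dashed) and upper quartile (8.38, dotted). The probe sets of *Alkbh3* and *Fto* lie furthest apart and those of *Alkbh5* lie close together.

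The repair enzymes of the family are ALKBH2 and ALKBH3, which remove methyl groups from adenine and cytosine in DNA. ALKBH2 acts mainly on double-stranded DNA. Its gene had a single probe set, 1455673_at, with a level of 8.89, at the 80.6th percentile. ALKBH3 prefers single-stranded DNA and also acts on RNA. Its gene had 3 probe sets, at 8.54 (1428889_at), 6.47 (1444184_at) and 4.06 (1456206_at), which span 4.48 log2 units. The brightest of them carries the symbol 1810020C19Rik, the dimmest 1500011J06Rik and the third none, and all 3 are tied to *Alkbh3* by their gene identifier.

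The RNA demethylases are ALKBH5 and FTO. *Alkbh5* had 2 probe sets at 9.27 (1434701_at) and 8.94 (1437728_at), 0.32 log2 units apart. Both were above the upper quartile, and no other family gene with several probe sets had them so close. *Fto*, named for its link to body mass, had 2 probe sets at 8.45 (1448223_at) and 3.97 (1430829_s_at). These differ by 4.49 log2 units. The suffix of the dimmer one marks probes common to several transcripts, which can belong to different genes, and it lies at the 5.70th percentile, near the bottom of the array.

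ALKBH8 carries a methyltransferase domain beside its dioxygenase domain and modifies uridine at the wobble position of transfer RNA. Its gene had 2 probe sets at 8.31 (1429521_at) and 6.05 (1453539_at). The brighter one lies just under the upper quartile and the dimmer one under the median.

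The remaining paralogs act elsewhere or are less well known. ALKBH4 has been described as a demethylase of actin. Its gene had 3 probe sets at 7.90 (1429850_x_at), 7.10 (1451432_x_at) and 6.58 (1453301_a_at), all above the median of the array. The brighter 2 carry a suffix that marks probes similar to other sequences, so their signal may hold other transcripts. ALKBH6 is among the least studied members, and its gene had 1 probe set at 8.51 (1455390_at). ALKBH7 is a mitochondrial protein linked to programmed necrosis and fat metabolism, and its gene had 1 probe set at 9.01 (1428516_a_at).

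Genes that work beside the family were examined in the same way, as 5 lists. The count of each list stands beside 12.8% of all probe sets and 14.7% of the brightest probe sets of named genes. None of these counts was tested, and none is read as a result about its list. Writers and readers of methylated adenosine in messenger RNA, whose mark ALKBH5 and FTO remove, had group means for 0 of 13 genes at any of their 26 probe sets. Genes of the repair of alkylated DNA, among them the *Ascc* genes whose products act with ALKBH3, had group means for 0 of 12 genes at any of 28 probe sets. The median levels of these lists were 9.41 and 8.71, and that of the 8 paralogs was 8.53.

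Among 12 genes of the wobble position of transfer RNA, 2 had group means. *Nsun3*, whose product methylates a mitochondrial transfer RNA at the position that ALKBH1 then oxidizes, was at 6.75 in WT and 6.23 in Alkbh1-/- cells (a log2 difference of −0.52). *Ftsj1*, an X-linked methyltransferase of transfer RNA, was at 9.21 and 10.14 (a log2 difference of 0.93), higher in Alkbh1-/- cells like 469 of the 499 X-linked probe sets with group means. *Trmt112*, which encodes the partner of ALKBH8, had no group means.

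Of 15 genes that supply 2-oxoglutarate or remove the products that inhibit its use, 2 had group means, the autosomal *Idh2* and the X-linked *Idh3g*, both higher in Alkbh1-/- cells. *Idh2*, the mitochondrial isocitrate dehydrogenase that depends on NADP, was at 9.03 in WT and 10.39 in Alkbh1-/- cells (a log2 difference of 1.36). Its other matched probe set differed by 0.49 log2 units in the same direction. *Idh3g*, a subunit of the dehydrogenase that depends on NAD, was at 11.52 and 12.37 (a log2 difference of 0.85), and shared its direction with nearly all X-linked probe sets that had group means.

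Of 19 other 2-oxoglutarate dioxygenases, 2 had group means at the brightest probe set, both lower in Alkbh1-/- cells. *Plod1*, a lysyl hydroxylase of collagen, was at 7.51 in WT and 6.97 in Alkbh1-/- cells (a log2 difference of −0.55). *Ogfod2* was at 6.26 and 5.77 (a log2 difference of −0.49). *Egln3*, a prolyl hydroxylase of the hypoxia response, and *Riox2*, a hydroxylase of a ribosomal protein, were named after their values were seen. Both had group means only at a dimmer probe set, with log2 differences of −0.77 and −0.45. The levels of these probe sets were 4.38 and 6.28, and that of *Egln3* lies in the second dimmest of the 10 bins. The fibroblast collagens named above were lower as well, and their part in the value of *Plod1* was not tested. Over the 5 lists, 6 of 71 genes (8.45%) had group means at the brightest probe set, against 14.7% of all named genes. These shares are not at matched levels. The median percentiles of the 5 lists ran from 71.0 to 93.3, and in the brightest of the 10 bins 8.17% of probe sets had group means.

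**Figure D3:**
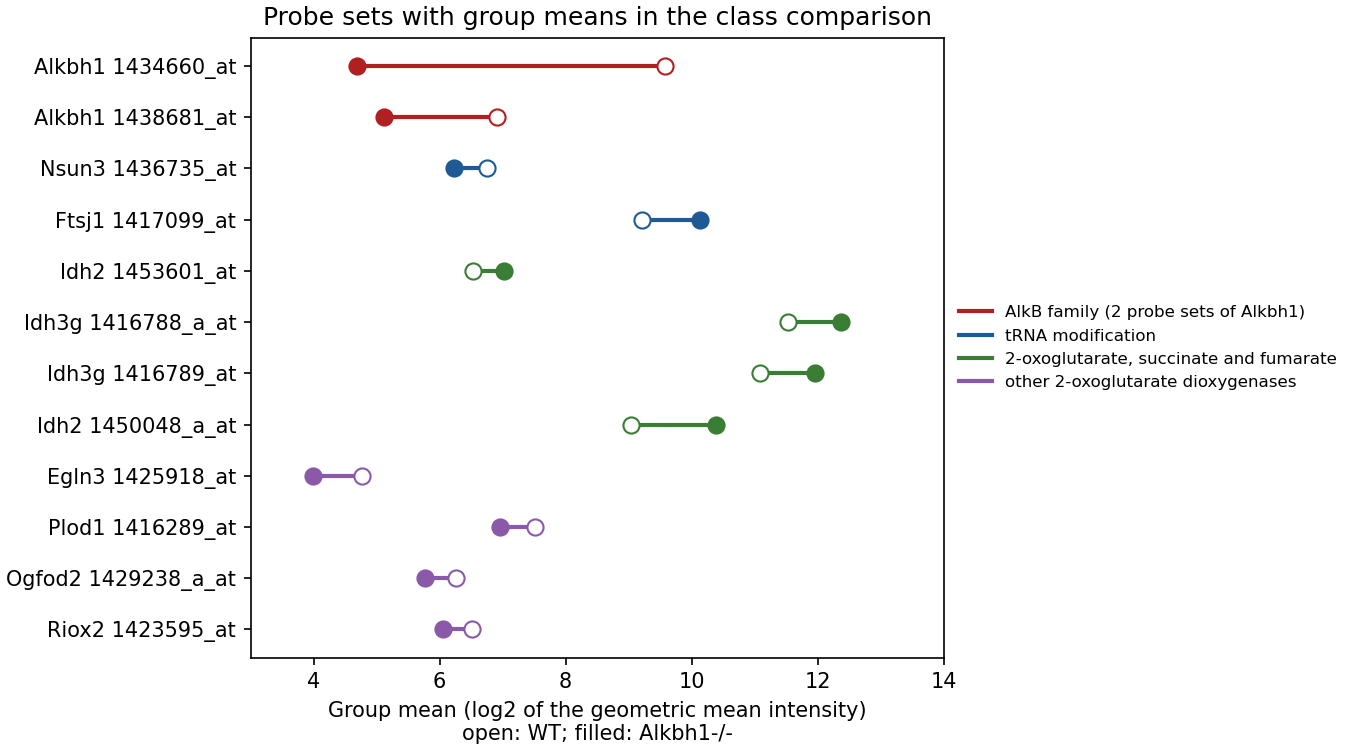
Authors' group means (horizontal axis, log2 of the geometric mean intensity) of each probe set of the AlkB family and of the related lists that has them; open circles are WT, filled circles Alkbh1-/-, and each line joins the 2 means of 1 probe set. The lines of the 2 *Alkbh1* probe sets (log2 differences of −4.89 and −1.79) are the longest, and no paralog is shown because none has group means.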

How the data were processed

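RNA of WT and Alkbh1-/- mESCs was hybridized to Affymetrix Mouse Genome arrays, 3 per genotype. The submitters' processing notes name RMA, with which all arrays were normalized together before the authors deposited the tables. From the table of all probe sets the log2 mean over all arrays was used as deposited; its log2 differences, moderated statistics, p-values and log-odds are the authors' comparison and were not used. From the class comparison the geometric mean intensity of each genotype was used as deposited; its folds and p-values were not used. The notes that came with the files state that the class headed C1 is WT. The number of arrays limits the precision.

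Probe sets were named through RefSeq genes (assembly GRCm38.p6) by gene identifier, then accession, symbol or synonym: 28205 (85.1%) were named. Of the 17 family probe sets, 2 carry the current symbol, 11 an older or other one and 4 none, and all were found by gene identifier. A gene is represented by its brightest probe set.

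Identifiers of the class comparison do not go with its values: of 4231 entries matched, 8 stood beside the same identifier. The 2 tables were joined where the mean of both log2 group means equalled the mean over all arrays within 1e-06 and the match was unique (55 probe sets were not unique). With this naming, genes with exactly 2 matched probe sets had both on the same side in 505 of 508 cases (99.4%), and by identifier in 254 of 511 (49.7%). The join was tested on simulated data with evenly spread levels, in which every entry had a partner. Entries without a partner and the crowding of the real levels were not simulated.

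A test with limma was planned only for values of single arrays, which neither table holds, so none was made. All members of the family are named, and of each related list the 4 genes with group means furthest from a ratio of 1. The members and lists were chosen with earlier results of these data known. Python 3.11.15, pandas 2.3.3, numpy 2.4.6 and matplotlib 3.10.9 were used.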

Additional observations from a re-analysis of the deposited data

How the results depend on the processing

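The level of a gene depended on its probe set. With the median over its probe sets or the dimmest one in place of the brightest, the log2 level was 6.57 or 6.01 for *Alkbh1*, 6.47 or 4.06 for *Alkbh3*, 7.10 or 6.58 for *Alkbh4*, 9.10 or 8.94 for *Alkbh5*, 7.18 or 6.05 for *Alkbh8* and 6.21 or 3.97 for *Fto*. The count of 9 family genes at or above the median level became 6 at the upper quartile, 8 with the median over probe sets and 8 when ranked among named genes. When ranked among named genes, only *Alkbh5* (76.8th percentile) was above the upper quartile. Family genes with group means numbered 1 with the tolerance at 1e-07 or 1e-05, with any probe set and with identifiers as the key, and 1 gene was past a 2-fold difference and past 1.5-fold among probe sets above the median level. The log2 difference of *Alkbh1* was −1.79 at its other probe set. Joined by identifier, a setting added after seeing the data, it was −1.22, and the other probe set turned to 0.60; the share of same-side probe sets under that key is 49.7%. The 15.5% share in the paralogs' range of levels was also added then. No paired analysis was possible because the columns used carry means of each genotype and no replicate number, and leaving out single replicates was not run for the same reason.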
